A study of Mus musculus with 18 samples.

Results

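Retained-intron transcripts are annotated transcripts of a gene that keep sequence which the gene's coding transcripts splice out. The members described here are the transcripts of the deposited transcript table that GENCODE M21 types as retained intron and that lie in protein-coding genes with a summed count of at least 100 in every one of the 18 libraries. By this rule 15598 of the 141862 annotated transcripts in the table were members, and they lay in 5990 host genes. The annotation holds 21848 transcripts of this type in the table in all. Members were thus chosen by their annotation and by the summed counts of their genes, and the shares reported below were not used to choose them. Just inside the threshold were Pou6f1, with a lowest gene count of 100, and P3h1 and Ap1m2, each with 101. Just outside were Pdgfb, Nr1h3 and Zfp169, each with 99.

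RNA had been sequenced from mouse CD8+ T cells of spleen and lymph nodes, and the labels give the genotype of every sample as OT-I, a transgenic receptor that recognises the peptide SIINFEKL of ovalbumin. Of the 18 libraries, 8 are labelled naive (day 0). Another 8 are labelled control and received a scrambled sequence, and 2 are labelled Tra2bKO, a knockout of the splicing regulator Tra2b. Control and knockout cells had been stimulated with SIINFEKL and with antibodies against OX40 and 4-1BB, which are costimulatory receptors, and were collected on day 4. The labels name neither the method of the knockout nor the animals behind each library, so the spread on which the p-values rest may be technical. Total counts per library ran from 68249844 to 93972513.

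The libraries labelled naive stand apart from the others in receptor use. The OT-I receptor uses the variable segment Trbv12-1, and this segment made up 5.95 to 12.4% of all Trbv counts where the label is naive. In control cells it made up 99.6 to 99.8%, and in knockout cells 99.4 and 99.7%. In every comparison with them, stimulation therefore cannot be told apart from the source of the cells. Tra2b itself stood at 248 to 352 CPM (counts per 1000000 counts of a library) in naive cells, at 338 to 526 CPM in control cells and at 361 and 370 CPM in knockout cells. The lowest control was control 2 at 338 CPM, and the other controls held 440 to 526 CPM. Both knockout libraries thus lay above control 2 and below every other control. The gene count includes reads of any edited transcript and does not check the edit, so the 2 libraries are called knockout by their label.

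Most introns are removed while the RNA is being made. A transcript that keeps one usually stays in the nucleus as a detained transcript, or is degraded after export because the intron brings in a stop codon ahead of the last exon junction, the signal for nonsense-mediated decay. Retained introns are known to be short, rich in G and C and flanked by weak splice sites, and genes for SR proteins, other splicing factors and their kinases are known for them. Resting lymphocytes are known to hold many such transcripts, which are spliced or lost upon activation. The measure used below is the share, the percent of a gene's transcript counts that the authors' estimation assigned to one transcript. The kit primed on polyA tails, so only polyadenylated forms are seen.

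In the annotation, 4876 members (31.3%) contained at least 1 whole intron of a coding transcript of their gene, 3608 of them exactly 1. A further 10689 (68.5%) had an exon that overlapped such an intron without containing a whole one, and are called members with part of an intron. Whether the overlap lay at an end of the transcript or inside it was not examined. The remaining 33 held no sequence of an intron of a coding transcript. The 5734 distinct whole introns had a median length of 259 bp, against 1284 bp for the 90110 introns of coding transcripts in the host genes. Their median GC content was 50.8%, 94.3% lay between coding exons and 7.36% were the last intron of their transcript. Of them 5641 began with GT and ended with AG, 60 were GC-AG and 10 were AT-AC, and 33 began with GTATCC, the start of many introns of the minor spliceosome. The exons of a member summed to a median length of 833 nt, against 1800 nt for coding transcripts of the same genes. A host gene had a median of 2 members and at most 16, so members of one gene share reads and their shares are not independent.

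The short introns kept by members that the results turn on are shown whole, from the GENCODE M21 transcript sequences (GRCm38), 5′ to 3′ on the strand of the gene, with the first and last 2 bases in capitals. Stk16-205 keeps intron 4 of 7 of Stk16-201 (chr1:75212734-75212885, plus strand, 152 bp, 58.6% GC). Vps28-203 keeps intron 8 of 9 of Vps28-202 (chr15:76622563-76622654, minus strand, 92 bp) beside introns 7 and 5. Mrpl53-202 keeps intron 2 of 2 of Mrpl53-201 (chr6:83109427-83109521, plus strand, 95 bp). Lat-202 is a single exon that runs through 7 introns of Lat-201, of which intron 7 of 11 is shown (chr7:126367971-126368045, minus strand, 75 bp). Taf1d-203 keeps the intron of Taf1d-209 (chr9:15311696-15311817, plus strand, 122 bp, 35.2% GC). All lie between coding exons of those transcripts.
Stk16-205 intron 4: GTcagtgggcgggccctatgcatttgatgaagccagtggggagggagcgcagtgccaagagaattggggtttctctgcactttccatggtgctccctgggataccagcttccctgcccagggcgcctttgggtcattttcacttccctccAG
Vps28-203 intron 8: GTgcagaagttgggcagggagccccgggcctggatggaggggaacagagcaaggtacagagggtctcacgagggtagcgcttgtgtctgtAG
Mrpl53-202 intron 2: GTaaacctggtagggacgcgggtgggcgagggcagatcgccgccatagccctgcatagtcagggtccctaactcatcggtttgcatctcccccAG
Lat-202 intron 7: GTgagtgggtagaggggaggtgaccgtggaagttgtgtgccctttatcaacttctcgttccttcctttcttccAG
Taf1d-203 intron: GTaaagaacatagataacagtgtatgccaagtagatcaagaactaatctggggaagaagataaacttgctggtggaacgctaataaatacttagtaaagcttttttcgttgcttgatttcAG

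For 4 longer introns only the splice sites are shown, because the kept introns of these members run from 505 to 3192 bp. The 5′ site is given as 3 exon bases and 6 intron bases and the 3′ site as 20 intron bases and 3 exon bases, with the terminal intron bases in capitals. Srsf5-212 keeps intron 6 of 8 of Srsf5-204 (chr12:80947866-80949094, plus strand). Sf3b1-203 keeps intron 4 of 24 of Sf3b1-201 (chr1:55014563-55016375, minus strand). Cd8a-203 keeps intron 1 of 4 of Cd8a-201 (chr6:71373998-71374502, plus strand). Snrnp48-204 keeps intron 6 of 8 of Snrnp48-201 (chr13:38217496-38220687, plus strand), which is 1 of the 60 that start with GC.
Srsf5-212 5′ site: cagGTttgt
Srsf5-212 3′ site: cataattgtcttgtgttaAGgat
Sf3b1-203 5′ site: atgGTaatt
Sf3b1-203 3′ site: gttgctgttcttttctgcAGgag
Cd8a-203 5′ site: aagGTttgg
Cd8a-203 3′ site: gcaccctattgcttttgcAGtga
Snrnp48-204 5′ site: gagGCaagt
Snrnp48-204 3′ site: tggtttttccttcttccaAGgtg

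Summed over all members, retained-intron transcripts held a larger part of the host-gene counts in the libraries labelled naive than in the stimulated cells. The sum was 7.81, 7.71, 8.07, 7.81, 8.58, 9.16, 8.50 and 8.42% in naive 1 to 8, with a mean of 8.26 ± 0.498% (SD, n = 8). In control 1 to 8 it was 4.54, 5.48, 5.54, 5.34, 5.22, 5.14, 4.89 and 5.32%, with a mean of 5.18 ± 0.329% (SD, n = 8). In the 2 knockout libraries it was 5.38 and 5.30%. No naive library overlapped a stimulated library, and both knockout libraries lay inside the control range.

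**Figure D1:**
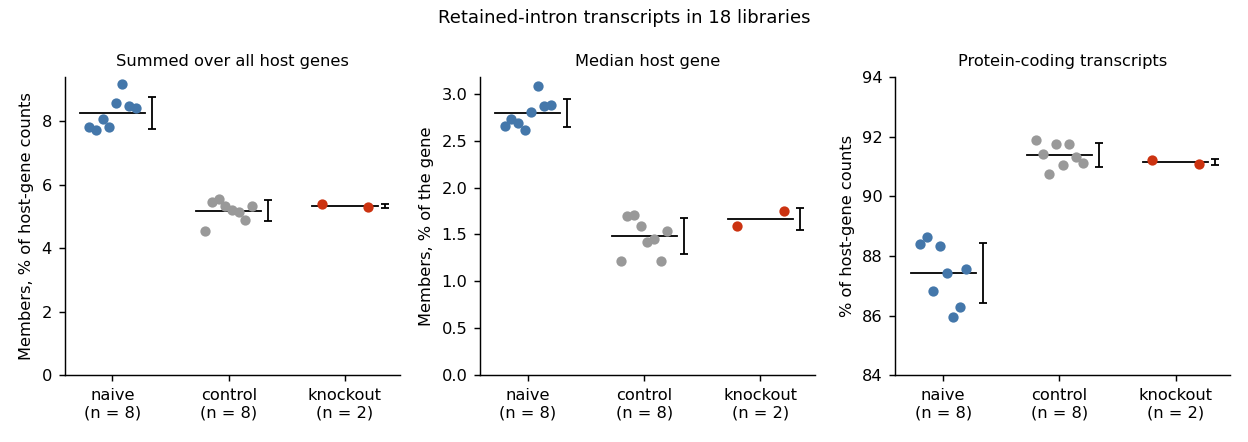
Members as a percent of all host-gene counts (left), the median over host genes of the summed member share (centre) and protein-coding transcripts as a percent of host-gene counts (right, axis from 84 to 94%), with 1 point per library, the group mean as a line and the SD as a bar. The naive libraries lie between 7.71 and 9.16% in the left plot, above every control and knockout library.

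The same order was seen for the typical gene. The median over host genes of the summed member share was 2.62 to 3.08% in naive, 1.21 to 1.71% in control, and 1.59 and 1.74% in knockout libraries. Between 2270 and 2528 members held at least 5% of their gene in a naive library, against 1439 to 1813 in a control and 1746 and 1745 in the knockout libraries. Members with a whole intron made up 5.65 to 6.85% of host-gene counts in naive and 3.53 to 4.26% in control libraries. Members with part of an intron made up 1.96 to 2.31% and 0.996 to 1.29%. Protein-coding transcripts of the same genes held 86.0 to 88.6% in naive, 90.8 to 91.9% in control, and 91.2 and 91.1% in knockout libraries. The summed level of the members was 46261 to 53385 CPM in naive, 34936 to 40142 CPM in control, and 38537 and 37822 CPM in knockout libraries.

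Levels of marker genes of the same libraries are given beside these sums. The nuclear non-coding RNA Malat1 stood at 3007 to 4721 CPM in naive, 337 to 617 CPM in control, and 424 and 323 CPM in knockout libraries. Summed over 4 MHC class II genes, the level was 1107 to 3282 CPM in naive, 119 to 445 CPM in control and 77.3 and 100.06 CPM in knockout libraries. The 7 B cell markers summed to 685 to 1102, 377 to 464, and 639 and 809 CPM. The 5 NK cell markers summed to 124 to 184, 15.5 to 71.3, and 63.8 and 64.5 CPM, and the 6 myeloid and dendritic markers to 79.1 to 156, 30.3 to 56.4, and 78.4 and 90.5 CPM. The 8 CD8 T cell markers, at 6768 to 8139, 4147 to 5002, and 4101 and 4763 CPM, are the labelled cell type. The 4 erythroid markers summed to 1.31 to 23.6, 0.215 to 10.8, and 7.99 and 78.7 CPM. No marker of these lists was at 0 in all libraries. Malat1, the MHC class II sum and the NK sum were highest in the naive libraries, as were the member sums. The B cell and myeloid sums, and the erythroid sum of 1 library, were higher in the knockout libraries than in any control, unlike the member sums. The MHC class II sum was lower in both knockout libraries than in any control, and the NK sum lay inside the control range. The part of other cells in the summed share was not tested.

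The first comparison, control against naive, asks how use of these transcripts differs between unstimulated cells and cells 4 days after stimulation. The share of each transcript was tested with edgeR's quasi-likelihood test, the gene's total being the offset, over all transcripts of all genes, and called at a Benjamini-Hochberg adjusted p under 0.05. Of the 15598 members 9041 passed the filter on low counts. The share of 4005 members was lower in the controls and that of 128 was higher, where 22.3% of all transcripts tested were called (16.8% lower and 5.50% higher). For 1658 of the lower members (18.3% of those tested) and 36 of the higher ones (0.398%) no control library overlapped a naive library, against 6.47% and 2.03% of all transcripts tested. A member can pass the filter through the naive libraries alone, so the direction was also counted without any filter. The mean share was then lower in the controls for 12522 of the 15598 members (80.3%), higher for 2990 and equal for 86.

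Other transcript types of the same genes had lower percentages. Without a filter, 56.0% of all 46048 transcripts of the host genes had a lower mean share in the controls. The percent was 38.2 for protein-coding transcripts, 55.9 for transcripts typed as nonsense-mediated decay and 54.9 for processed transcripts without an open reading frame. The percent with a higher mean share was 51.5, 30.6 and 28.6 for these types and 19.2 for members. The rest had equal means, which were more frequent in these types than among members. On the log2 scale, with 0.1 percentage points added to both means, the median ratio of control to naive was -0.46 for members and -0.06 for all types. The shares of a gene sum to 100%, so a lower member share is matched by a higher share elsewhere in the gene.

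**Figure D2:**
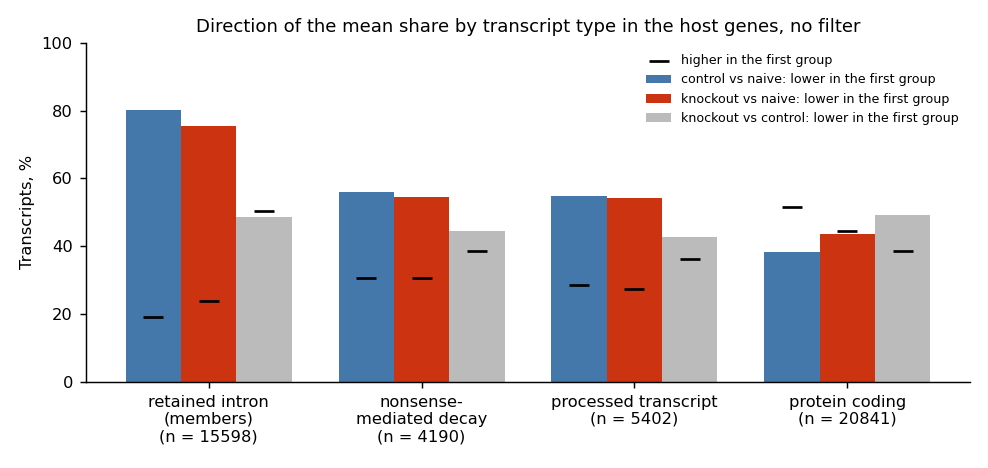
Percent of transcripts of each annotated type in the 5990 host genes whose mean share was lower (bars) or higher (black marks) in the first group of each comparison, with no filter on counts. For members, 80.3% were lower in control against naive and 75.4% in knockout against naive, against 48.7% in knockout against control.

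The lower share was spread over many genes. Of the host genes 2747 had at least 1 member with a lower share, 853 had at least 2, and 121 had a member with a higher share, with 54 in both groups. The member shares summed per gene had a lower mean in the controls in 5179 of 5990 genes, without overlap of the libraries in 1224, and a higher share without overlap in 24. Of all members that hold a whole intron, 31.8% were called lower (1553 of 4876). Of all those with part of an intron, 22.9% were (2450 of 10689). Both percents include members that did not pass the filter on low counts. Only 3657 of the first kind and 5372 of the second were tested, and among those tested the order was reversed. Without a filter, the mean share was lower in the controls for 4094 of the 4876 and for 8412 of the 10689. By the mean of the 3 group mean shares, 43.5% of members between 1 and 5% of their gene were called lower, 40.3% of those between 5 and 20%, and 22.7% of those at 20% or more.

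Among members with exactly 1 whole intron, the percent called lower was 20.1 for introns under 100 bp, 22.5 for 100 to 200 bp, 31.8 for 200 to 1000 bp and 39.7 for 1000 bp or more. These percents include members that did not pass the filter on low counts. Tested were 488 of 817, 487 of 803, 1070 of 1386 and 525 of 602 members, so the part tested also rose with length. The percent with a lower mean share, which needs no filter, was 77.1, 79.5, 83.98 and 89.2 over the same classes. For knockout against naive it was 75.8, 74.5, 77.6 and 73.4, with no such order. As a description, Spearman's rho across these members was -0.20 between intron length and the log2 ratio of shares, and 0.13 between intron GC content and that ratio. The points share the same libraries.

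For most of these members the transcript itself was less abundant, not only its share. In a test of levels scaled by library (45.3% of all transcripts called, 25.8% lower and 19.5% higher), 3030 of the 4005 members with a lower share were also lower in level and 41 were higher. The total count of the host gene moved both ways: 1886 of these members lay in genes called higher in the controls and 1387 in genes called lower. Over the host genes 2514 were higher and 2232 lower, where 71.5% of all genes were called (32.5% higher and 39.0% lower), and since gene totals chose the hosts nothing is read from these counts. Of the 128 members with a higher share, 67 were higher and 10 lower in level, and 92 lay in genes that were lower.

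Members were next grouped by the role of their genes, and each count is to be read against all members, of which 25.7% (44.3% of those tested) had a lower share in the controls and 0.821% a higher one, with a median log2 ratio of -0.46. Gene-level counts of these lists are to be read against all genes, of which 71.5% were called (32.5% higher and 39.0% lower). The calls of single members depended on the test. With diffSpliceDGE, which sets a transcript against the others of its gene, 13 of the 47 members named for this comparison stayed called. Those 13 were Trpm2-207, Crybg3-203, Cerk-202, Bace1-204, Fam102a-204, Zc3h7b-203, Nme4-204, Mettl1-203, Acaa1a-209, Srsf7-207, Snrpa1-204, Luc7l-204 and Cd3e-202. The other 34 were not called by it, with adjusted p from 0.0611 for Tra2a-203 to 0.991 for Clk4-213.

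SR proteins bind exonic enhancers and help the spliceosome to choose splice sites. Their 13 host genes held 43 members, and 21 (48.8%) had a lower share in the controls and 0 a higher share, with a median log2 ratio of -0.69 over all 43. Tra2a, the paralog of Tra2b, had the clearest of them: the share of Tra2a-203, a single exon that covers part of an intron, was 29.6, 32.7, 31.3, 32.2, 34.6, 38.8, 37.5 and 32.4% in naive 1 to 8. It was 10.01, 15.4, 13.5, 12.6, 12.7, 10.6, 11.9 and 12.8% in control 1 to 8 and 7.48 and 9.67% in the knockout libraries. The groups did not overlap, and the share fell by 1.44 on the log2 scale (SE 0.09, edgeR, adjusted p = 1.26e-07). The level of this transcript fell by 0.75 on the log2 scale while the gene rose by 0.54.

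Srsf5-212, whose splice sites are shown above, held the largest naive share of the SR members named here. Its share was 48.4 to 59.9% in naive (median 52.6%), 30.2 to 43.1% in control (median 38.5%) and 39.1 and 44.9% in knockout libraries, and the control against naive log2 fold change was -0.46 (SE 0.06, adjusted p = 7.62e-05, edgeR). Srsf2-203, with 2 kept introns, went from a mean of 16.6 ± 4.99% in naive to 6.20 ± 1.9% in control cells (SD, n = 8 each), without overlap. It overlaps Mettl23 on the opposite strand, and the sources used here do not say whether counting used strand. Srsf7-207 fell from 15.7 ± 7.69% to 3.85 ± 3.39% (SD, n = 8 each), and control 4, at 12.1%, overlapped the naive range of 7.72 to 25.2%. At gene level 12 of the 16 SR and TRA2 genes were higher in the controls and 4 lower: Srsf3 rose by 0.64 and Srsf10 by 0.55 on the log2 scale, while Srsf5 fell by 0.87 and Srrm2 by 0.51.

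The kinases that phosphorylate SR proteins had 34 members in 8 host genes, of which 8 (23.5%, or 30.8% of those tested) had a lower share in the controls and 0 a higher one. That is no more than among all members, and the median log2 ratio was -0.20. Clk4-213, with 4 kept introns, went from 22.7 ± 1.54% to 19.1 ± 1.09% (SD, n = 8 each; log2 fold change -0.25, adjusted p = 0.00118, edgeR). The call was lost with diffSpliceDGE (adjusted p = 0.991), with limma (adjusted p = 0.0699) and with a trend on transcript length removed (adjusted p = 0.471). Srpk2-203 went from 6.46 ± 1.04% to 2.81 ± 0.563% without overlap. All 8 kinase genes were lower at gene level, Clk1 among them (307 ± 31.8 to 124 ± 20.4 CPM, log2 fold change -1.30).

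Among hnRNP proteins and other splicing regulators, 59 of 133 members (44.4%) had a lower share in the controls and 0 a higher share, with a median log2 ratio of -0.56. Rbm39-205, in a U2AF-related splicing factor, had 12.4 to 15.9% in naive and 6.03 to 8.63% in control libraries, a fall by 0.87 on the log2 scale (SE 0.07, edgeR, adjusted p = 1.5e-06). Tia1-213, in an RNA-binding protein that promotes use of weak 5′ splice sites, went from 9.69 ± 1.40% to 3.69 ± 0.881% (SD, n = 8 each), also without overlap. Rbm25-206 went from 13.8 ± 1.41% to 7.90 ± 1.38% and stood at 9.85 and 23.9% in the knockout libraries. Rbm5-219, with 2 kept introns, went from 25.7 ± 3.59% to 17.8 ± 2.99% with overlap. As a share of the coding transcripts alone, that last difference was not called (adjusted p = 0.475, edgeR). Of the 33 genes 23 were higher and 6 lower in the controls. Hnrnpll, which represses variable exons of Ptprc in T cells, was among the higher ones (68.5 ± 9.68 to 181 ± 13.1 CPM).

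The genes for recognition of splice sites by U1, U2 and U2AF gave 39 lower members of 80 (48.8%) and 0 higher, with a median log2 ratio of -0.68. Sf3b1 encodes the U2 subunit that holds the branch point, and Sf3b1-203 kept 21.3, 21.6, 23.8, 27.5, 22.8, 26.1, 25.4 and 22.7% of its counts in naive 1 to 8. The controls held 12.4, 12.4, 13.7, 16.1, 14.2, 12.9, 13.1 and 14.8%, and the knockout libraries 12.0 and 16.5%. Every control lay below every naive library, and the log2 fold change was -0.80 (SE 0.07, adjusted p = 1.36e-06, edgeR). Luc7l-204, in a U1-associated factor, went from 27.7 ± 2.77% to 9.72 ± 2.40%, and Snrpa1-204, in a protein of the U2 particle, from 17.0 ± 3.21% to 5.39 ± 1.12% (SD, n = 8 each). Snrpa1-204 overlaps Gm45213 on the same strand. Sf3b3-205 went from 5.52 ± 0.673% to 2.44 ± 0.464% and overlaps Cog4 on the opposite strand. At gene level 20 of the 24 were higher in the controls and 1, Sf3b1, was lower.

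The minor spliceosome removes a rare class of introns. Of its 12 members, with a median log2 ratio of -0.70, 5 (41.7%, or 45.5% of those tested) had a lower share in the controls. Among those tested, that is close to the 44.3% of all members. The 5 were Snrnp48-204, Rnpc3-205, Zcrb1-202, Zrsr2-205 and Zrsr2-203, the last 3 named because the count is small. Snrnp48-204, the GC-AG intron shown above, held 51.8 to 64.7% in naive (median 61.2%), 40.3 to 51.7% in control (median 45.1%) and 48.4 and 47.4% in knockout libraries (control against naive log2 fold change -0.39, SE 0.05, adjusted p = 0.000108, edgeR). It was thus the main transcript of its gene in all 8 naive libraries. Rnpc3-205 went from 5.92 ± 1.07% to 3.62 ± 0.676%, Zcrb1-202 from 0.844 ± 0.259% to 0.338 ± 0.110%, and Zrsr2-203 from 1.56 ± 0.546% to 0.633 ± 0.356% (SD, n = 8 each).

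Genes for nuclear RNA retention and decay had 18 lower members of 58 (31.0%), and genes for nonsense-mediated decay 8 of 20, with 0 higher in both and median log2 ratios of -0.30 and -0.66. Thoc1-211, in a subunit of the THO export complex, went from 13.9 ± 2.78% to 5.21 ± 2.26% and overlaps Usp14 on the opposite strand. Smg5-203, in a factor that recruits RNA-degrading activity to decay targets, went from 29.6 ± 3.49% to 18.4 ± 2.47%, and Smg9-205 from 9.38 ± 2.05% to 4.77 ± 0.908% (SD, n = 8 each), all 3 without overlap. At gene level Smg1, the kinase that starts nonsense-mediated decay, fell by 1.18 on the log2 scale, while the exon junction genes Eif4a3, Rbm8a and Magoh rose by 0.67, 0.62 and 0.76.

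Of 77 members in genes known for detained introns, 25 (32.5%, or 41.0% of those tested) had a lower share in the controls and 0 a higher one, against 25.7% and 44.3% over all members. Their median log2 ratio was -0.37. Ogt-204, in the enzyme that adds O-linked N-acetylglucosamine to proteins, went from 9.34 ± 1.48% to 3.83 ± 1.10%, and was 2.03 and 7.66% in the knockout libraries. Rbm3-209, in a cold-induced RNA-binding protein, went from 14.8 ± 1.49% to 7.88 ± 1.12% (SD, n = 8 each). It overlaps Rbm3os on the opposite strand. Both pairs of groups were apart.

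Genes of T cell activation and identity had 27 lower (49.1%) and 2 higher members of 55, with a median log2 ratio of -0.44. Cd3e encodes a signalling chain of the T cell receptor complex, and Cd3e-202 held 8.39, 9.27, 8.42, 8.73, 9.93, 8.58, 10.2 and 9.0% of its counts in naive 1 to 8 but 2.84, 4.54, 4.83, 4.23, 3.99, 3.6, 3.08 and 3.69% in control 1 to 8. The knockout libraries held 4.13 and 4.50%, and the control against naive log2 fold change was -1.24 (SE 0.10, adjusted p = 1.2e-06, edgeR). Lat-202, a single exon in the gene of the adaptor that carries receptor signals, held 7.73 to 9.23% in naive and 3.05 to 4.84% in control libraries, without overlap (log2 fold change -1.07, adjusted p = 1.34e-06, edgeR). The microRNA gene Mir7058 lies inside it.

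Cd8a-203, which keeps intron 1 of the gene of the CD8 coreceptor, was a large form in every library. It held 41.5 to 48.1% in naive (median 44.8%), 35.2 to 40.1% in control (median 37.3%) and 42.8 and 39.4% in knockout libraries, the change for control against naive being -0.25 on the log2 scale (SE 0.03, adjusted p = 5.35e-05, edgeR). With a trend on transcript length removed it was -0.06 (adjusted p = 0.0769) and not called. Ptprc-208, in the gene of the phosphatase CD45, went from 6.52 ± 0.702% to 3.41 ± 0.592% (SD, n = 8 each). The 2 higher members, named because the count is small, were minor forms: Lef1-208 went from 0.108 ± 0.0241% to 0.332 ± 0.110% and Ptprc-205 from 0.149 ± 0.0157% to 0.359 ± 0.0579%.

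Cytosolic ribosomal proteins and translation factors had 21 lower (27.6%, or 32.8% of those tested) and 4 higher members of 76. The percent lower was close to or below that of all members, and the median log2 ratio was -0.16. Rpl10a-204 went from 7.22 ± 1.25% to 5.23 ± 0.623% and Eif4a1-202, with 4 kept introns, from 5.61 ± 1.18% to 3.71 ± 1.06% (SD, n = 8 each), both with overlap. The small RNA gene Gm22988 lies inside Eif4a1-202. This member was not called without naive 5 (adjusted p = 0.0552), without naive 8 (adjusted p = 0.0531), with the length trend removed (adjusted p = 0.117, edgeR) or with diffSpliceDGE (adjusted p = 0.46), and Rpl10a-204 was not called as a share of the coding transcripts (adjusted p = 0.349). The 4 higher members were Rpl13a-218, Rpl13a-213, Rpl13a-209 and Eif4a2-206, all under 1% of their gene in both group means. Rpl13a and Eif4a2 host small nucleolar RNAs in their introns.

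**Figure D3:**
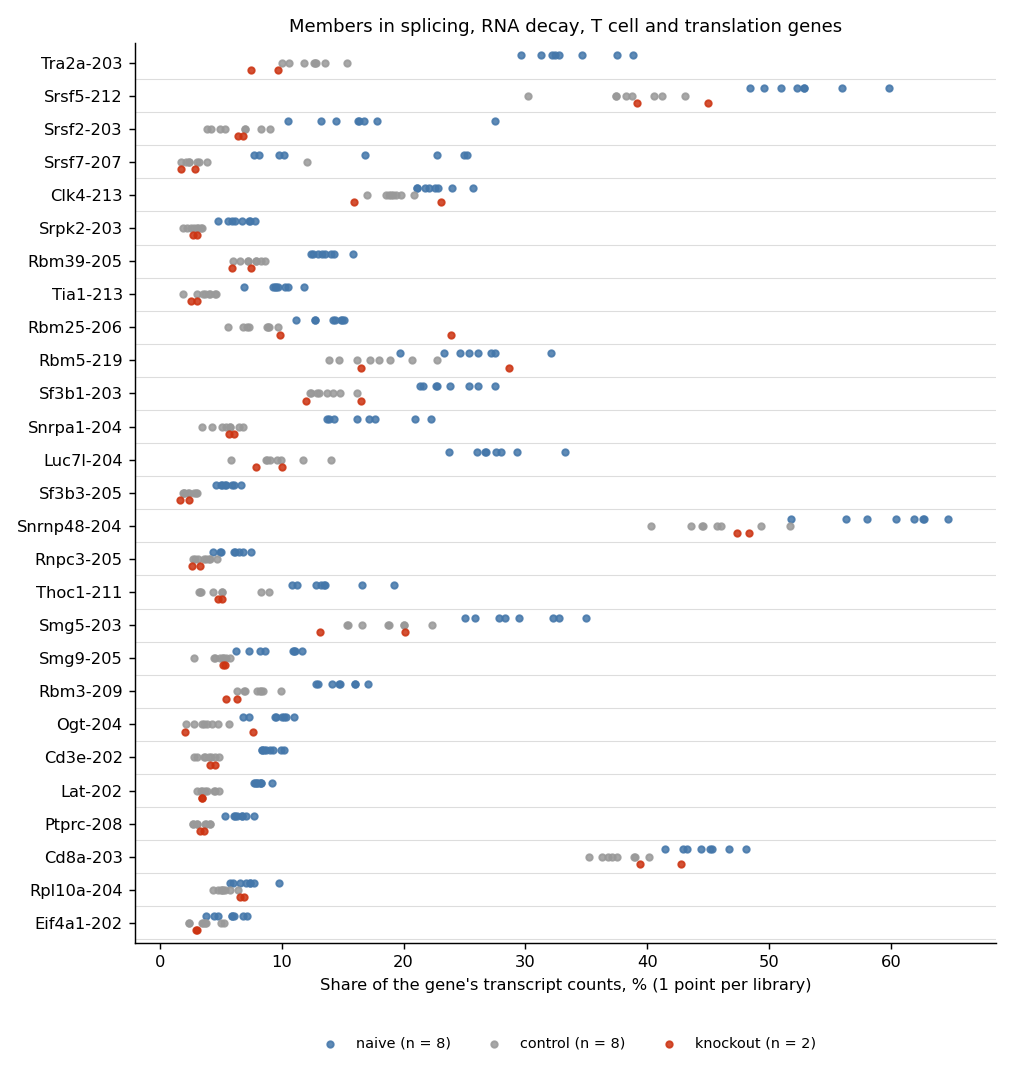
Share of the gene's transcript counts for 27 members in splicing, RNA decay, T cell and translation genes, with 1 point per library (naive, control and knockout on separate rows of dots). Tra2a-203 lies between 29.6 and 38.8% in the naive libraries and between 10.01 and 15.4% in the controls.

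The members that differed most in percentage points were chosen for that size, so their differences are a description of the extremes. The largest fall was Bace1-204, in the gene of beta-secretase. It held 68.7, 55.3, 52.1, 76.9, 54.7, 64.5, 79.0 and 56.2% of the gene in naive 1 to 8, and 0 counts in all 8 control and both knockout libraries. A count of 0 allows a share of up to 0.726 to 1.57% in the controls (3 counts of the gene's total, counting error only). The transcript overlaps Gm16536 and Gm49338 on the opposite strand. The gene had as few as 191 counts in a control.

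Fam102a-204, with 2 kept introns, held 60.2 to 74.9% in naive libraries (median 67.3%) and 1.35 to 27.1% in controls (median 3.31%). Tbc1d4-208, in a regulator of glucose transporter traffic, went from 60.9 ± 6.82% to 29.4 ± 5.08%, and Lamb3-208, in a laminin gene, from 72.7 ± 4.03% to 40.6 ± 6.10% (SD, n = 8 each). Tpcn1-204, in an endolysosomal cation channel, went from 48.1 ± 3.20% to 22.6 ± 7.43%. All 4 genes were also lower in total count. Tbc1d4-208, Lamb3-208 and Tpcn1-204 each hold part of an intron.

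In Mettl1, Acaa1a and Mrpl53 the share fell while the gene changed little or rose. Mettl1-203, in a tRNA methyltransferase, went from 33.1 ± 5.79% to 8.2 ± 2.66% (SD, n = 8 each; log2 fold change -2.01, SE 0.21, adjusted p = 7.92e-06, edgeR), and the log2 fold change of the gene was 0.00 (adjusted p = 0.967). Acaa1a-209, in a peroxisomal thiolase, went from 32.1 ± 8.14% to 7.69 ± 2.02% (SD, n = 8 each), and the gene fell by 0.27 on the log2 scale. Mrpl53-202, whose 95 bp intron is shown above, went from 43.8 ± 6.32% to 19.6 ± 5.65% as the gene, a subunit of the mitochondrial ribosome, rose by 1.36 on the log2 scale. The level of Mrpl53-202 itself was not called (log2 fold change 0.37, adjusted p = 0.0814), and it overlaps Gm42688 on the same strand.

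Nme4-204, in a mitochondrial nucleoside diphosphate kinase, held 33.4, 33.8, 33.9, 22.8, 30.8, 33.98, 34.96 and 31.8% in naive 1 to 8. Its share was 0, 3.17, 0, 8.47, 0, 0, 0 and 8.22% in control 1 to 8 and 28.5 and 0% in the knockout libraries, so the 2 knockout libraries differed as widely as the groups. The 5 control zeros allow shares of up to 0.800 to 1.21%. Zc3h7b-203, in a zinc finger protein, went from 45.7 ± 11.2% to 11.9 ± 7.02% and overlaps Rangap1 on the opposite strand.

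The largest rise was Trpm2-207, in a calcium-permeable channel opened by ADP-ribose. It held 16.0, 23.2, 23.0, 21.3, 24.4, 24.2, 13.6 and 10.5% of the gene in naive 1 to 8. The controls held 99.7, 100, 92.4, 93.4, 90.4, 97.6, 96.0 and 96.1% and the knockout libraries 93.6 and 91.0%. The log2 fold change of its share was 2.29 (SE 0.16, adjusted p = 3.65e-07, edgeR), and while the gene fell by 1.19 the transcript rose by 1.29. Trpm2-207 keeps intron 30 of 33 of Trpm2-203 (chr10:77913911-77914711, minus strand, 801 bp), and Gm22394 and Gm22871 overlap it on the same strand.

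Rccd1-205 held 21.7 to 30.6% in naive and 38.01 to 50.2% in control libraries, and Uimc1-205, in a ubiquitin-binding DNA repair factor, 16.5 to 26.8% and 29.1 to 38.3%. Tasp1-204, in the protease taspase, held 19.0 to 23.7% and 28.7 to 33.3%. None of the 3 pairs overlapped, but Rccd1-205 lies opposite Prc1 and Uimc1-205 opposite Gm6344. Plcb2-201, in a phospholipase C, went from 7.17 ± 1.52% to 20.4 ± 7.13% as the gene fell by 2.25 on the log2 scale. Pvr-204, in a ligand of the receptors TIGIT and CD226, went from 7.32 ± 3.19% to 19.0 ± 4.22% (SD, n = 8 each).

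Of the other large rises, Borcs8-204 went from 10.8 ± 2.58% to 19.7 ± 2.92% and overlaps Mef2b on the same strand. BC049715-205 went from 42.4 ± 6.25% to 64.7 ± 7.54% and lies opposite Smco3 and Wbp11. In Crybg3-203 7 naive libraries were at 0 and naive 3 at 0.731%, while the controls ran from 9.68 to 73.9%. It lies opposite Riox2. The mean of Cerk-202, in ceramide kinase, rose from 0.533 to 14.9%, which rests on control 1 at 88.2%. The other 7 controls held 2.15 to 6.22%, still above the naive range of 0.180 to 1.33%.

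**Figure D4:**
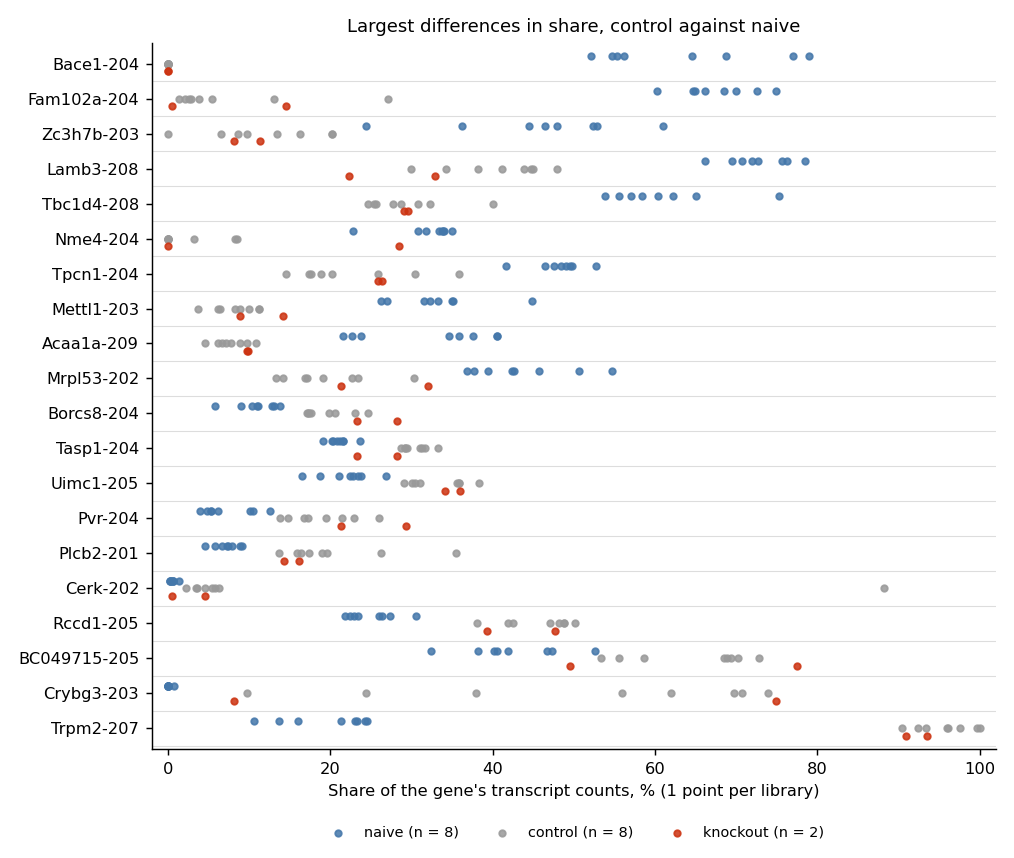
Share of the gene's transcript counts for the 10 members with the largest fall and the 10 with the largest rise between naive and control libraries, with 1 point per library and knockout libraries shown beside them. Bace1-204 lies between 52.1 and 79.0% in the naive libraries and at 0 in all stimulated libraries, and Trpm2-207 lies between 10.5 and 24.4% in naive and above 90% in stimulated libraries.

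The second comparison, knockout against control, asks how stimulated cells labelled as a knockout of Tra2b differ from the stimulated controls. Few members were called. Of 10297 members that passed the filter, 34 had a higher share in the knockout libraries and 12 a lower one, where 0.751% of all transcripts tested were called (0.357% higher and 0.394% lower), and 1016 had an unadjusted p under 0.05. Without a filter the mean share was higher for 7846 and lower for 7596 members, with a median log2 ratio of 0.00. A member that was not called may still differ, since with 2 knockout libraries the test called hardly any of the changed shares in simulated data.

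The calls depended on single libraries and on the test. With diffSpliceDGE 2 of the 46 were called. Without knockout 1 there were 17 higher and 12 lower members, of which 9 in all were among the 46. Without knockout 2 there were 19 and 18, of which 14 were. Against controls 3 to 8 alone there were 17 higher and 3 lower. Leaving out 1 of the controls left 20 to 35 higher and 5 to 9 lower members.

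Of the 13 members named, Hpf1-207, Ubash3a-206 and Safb2-209 kept the call whichever single library was left out. With diffSpliceDGE none of these 3 was called (adjusted p = 0.0544, 0.164 and 1), and of the 13 only Stk16-205 was. Hpf1 encodes the cofactor that directs PARP1 to serines, and Hpf1-207, a single exon with part of an intron, held 17.99 and 17.7% in the knockout libraries. It held 1.79, 2.7, 3.37, 2.47, 2.33, 1.97, 2.55 and 2.83% in control 1 to 8 and 3.14 to 5.30% in the naive libraries (log2 fold change 2.83 for knockout against control, SE 0.18, adjusted p = 0.000211, edgeR). The gene fell by 0.69 on the log2 scale while the transcript rose by 2.14. Hpf1-206, named beside it although the rule takes 1 member per gene, went from 1.5% in the controls to 11.8% in the knockout libraries (group means, log2 fold change 2.98, adjusted p = 3.23e-05, edgeR).

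Ubash3a-206, in a phosphatase-like inhibitor of T cell receptor signalling, held 16.7 and 19.1% in the knockout libraries against 3.36, 4.49, 4.76, 3.81, 3.80, 3.79, 2.40 and 3.90% in control 1 to 8 and 5.49 to 7.35% in naive cells. The log2 fold change was 2.24 (SE 0.19, adjusted p = 0.00103, edgeR), with a rise of 2.23 in the level of the transcript and no called change of the gene (0.01, adjusted p = 0.951). Safb2-209, in an RNA-binding scaffold attachment factor, held 22.6 and 18.7% against 5.42 to 8.16% in control (median 6.66%) and 6.49 to 10.4% in naive cells (log2 fold change 1.63, SE 0.15, adjusted p = 0.00156, edgeR).

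The largest rise in percentage points was Stk16-205, which keeps the 152 bp intron shown above in a gene for a membrane-bound protein kinase. It held 47.9 and 50.2% in the knockout libraries but 0.757, 0.487, 0.520, 0.282, 0.649, 0.409, 0 and 0% in control 1 to 8 and 0.196 to 1.76% in the naive libraries. The adjusted p was 0.0454 (edgeR), and it was 0.113 and 0.112 without knockout 1 and knockout 2, and between 0.0318 and 0.0933 with 1 control left out. Limma did not call it (adjusted p = 0.1135). With edgeR the call was lost against controls 3 to 8 (adjusted p = 0.137) and as a share of the coding transcripts (adjusted p = 0.14). Without a filter it was lost too (adjusted p = 0.0625, edgeR). The call held with DESeq2, with all groups in one fit and with the length trend removed. The level of the transcript rose by 6.70 on the log2 scale, and the change of the gene was not called (-0.27, adjusted p = 0.0584). It overlaps Tuba4a on the opposite strand.

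Rasa2-204, in a Ras GTPase-activating protein, held 10.5 and 9.22% against 2.27 to 4.04% in the controls, and both the transcript and the gene rose, by 2.22 and 0.56 on the log2 scale. With 1 control left out its adjusted p was 0.00758 to 0.0207 (edgeR). DESeq2 called it, and limma did not (adjusted p = 0.0546). Taf1d-203, in a subunit of the RNA polymerase I selectivity factor, held 34.9 and 32.5% against 25.6 to 28.2% in control and 18.6 to 25.6% in naive cells. It was higher in the controls than in the naive libraries (adjusted p = 0.00244) and higher again in the knockout libraries (adjusted p = 0.0171, edgeR). The knockout call held with each single control left out. It was lost with limma (adjusted p = 0.542). With edgeR it was lost as a share of the coding transcripts (adjusted p = 0.767) and with the length trend removed (adjusted p = 0.103). The same held with all groups in one fit (adjusted p = 0.0808) and with controls 3 to 8 (adjusted p = 0.0594). Without knockout 1 the log2 fold change was 0.29. The locus carries small RNA genes on the same strand and Cep295 on the other, so assignment of its reads is uncertain.

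Nudt5-204, in a hydrolase of ADP-ribose, and Nvl-203, in a nuclear ATPase of ribosome assembly, had a lower share in control than in naive libraries and a higher one in knockout than in control libraries. Nudt5-204 held 7.23 to 11.1% in naive, 3.53 to 5.34% in control, and 13.02 and 9.79% in knockout libraries. Nvl-203 held 4.80 to 8.48%, 1.9 to 3.28%, and 6.78 and 8.57%. Both comparisons use the same controls, so the opposite signs are not independent. Serp2-203 held 23.7 and 21.04% against 8.86 to 15.0% in the controls, and Zfp810-202, in a zinc finger gene, 10.5 and 11.3% against 1.19 to 3.35%. With limma Nudt5-204, Nvl-203 and Serp2-203 were not called (adjusted p = 0.109, 0.0809 and 0.131). Serp2-203 had an adjusted p of 0.00682 to 0.0843 with a single control left out (edgeR). Zfp810-202 was not called with all groups in one fit (adjusted p = 0.0794, edgeR). Each of these knockout calls was also lost without knockout 1, without knockout 2 or in both cases.

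The rule named 3 members with a lower share in the knockout libraries. Rasal3-209, with 2 kept introns in a Ras GTPase-activating protein of blood cells, held 6.12 and 12.4% against 47.0, 25.8, 42.0, 32.9, 29.5, 32.1, 41.0 and 45.2% in control 1 to 8 and 23.1 to 45.4% in the naive libraries. Its log2 fold change was -2.0 (SE 0.34, adjusted p = 0.0382, edgeR), and the transcript fell by 2.36. The call held without control 2 and without knockout 2 and was lost when any other single library was left out, with the adjusted p up to 0.153. CT485616.1 lies on the opposite strand.

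Vps28-203, in a subunit of the ESCRT-I sorting complex, held 7.02 and 7.18% against 9.70 to 12.8% in control and 11.4 to 14.6% in naive cells (log2 fold change -0.66, adjusted p = 0.0347, edgeR). It overlaps Tonsl on the same strand. Ttc14-210, a single exon that keeps intron 1, held 2.78 and 1.97% against 4.59 to 7.24% in the controls as its gene rose by 0.96. Both calls were lost without knockout 1 (adjusted p = 0.179 and 0.0637) and without knockout 2 (adjusted p = 0.153 and 0.196), and also without several of the single controls.

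**Figure D5:**
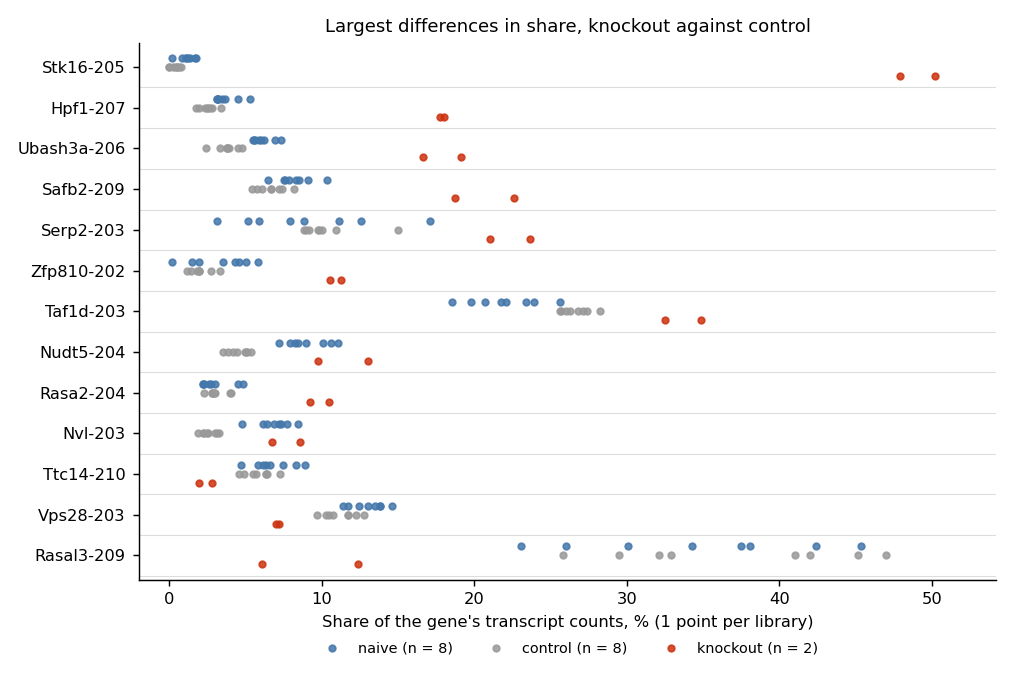
Share of the gene's transcript counts for the 10 members with the largest rise and the 3 with a fall between control and knockout libraries, with 1 point per library and naive libraries shown beside them. Stk16-205 lies at 47.9 and 50.2% in the knockout libraries and at or below 1.76% in the other libraries, and Rasal3-209 at 6.12 and 12.4% against 25.8% or more in the controls.

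In the lists, 3 members in all were called in this comparison, and they are named for that. Srpk1-203, with 2 kept introns in an SR protein kinase, held 3.12 and 1.62% against 0.355 to 0.774% in the controls (adjusted p = 0.0185, edgeR), while the gene fell from 162 ± 5.88 CPM (SD, n = 8) to 74.5 ± 1.81 CPM (SD, n = 2). Zrsr2-205, in a factor that recognises the 3′ site of minor introns, held 5.64 and 3.24% against 0.920 to 1.89% (adjusted p = 0.0258). Mbnl1-205, in a splicing regulator, held 1.31 and 0.918% against 2.67 to 3.59% (adjusted p = 0.00651). The counts of called members were 0 of 43 for SR proteins and TRA2, 0 of 80 for splice site recognition, 0 of 58 for nuclear retention and decay, 0 of 20 for nonsense-mediated decay, 0 of 77 for genes known for detained introns, 0 of 55 for T cell genes and 0 of 76 for ribosomal proteins and translation. The median log2 ratios of the 10 lists lay between -0.04 and 0.19, where that of all members was 0.00.

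Other members of these lists did not pass. Tra2a-203 held 7.48 and 9.67%, below all controls (10.01 to 15.4%), and its log2 fold change was -0.54 (SE 0.17, edgeR, adjusted p = 0.287). DESeq2 called it (adjusted p = 0.0496). Ccdc174-203, in an exon junction partner, held 20.2 and 23.2% against 13.5 to 16.0% (adjusted p = 0.0545). It was called with DESeq2 (adjusted p = 1.67e-05), at a minimum count of 50 (adjusted p = 0.0243) and as a share of the coding transcripts (adjusted p = 0.028), and not with diffSpliceDGE (adjusted p = 1). Rbm25-206 held 9.85 and 23.9%, so that its log2 fold change of 1.09 (adjusted p = 0.17) came mainly from knockout 2. It was called with DESeq2 (adjusted p = 0.0124), with all groups in one fit (adjusted p = 0.021) and without knockout 1 (adjusted p = 0.0279). Srpk1-212, which keeps 1 intron, swung within groups, 13.2 to 79.9% among naive and 17.0 to 78.6% among control libraries, and stood at 71.5 and 74.4% in knockout libraries (adjusted p = 0.799).

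At gene level, where 14.9% of all genes were called (7.62% higher and 7.24% lower), 3 of the 16 SR and TRA2 genes were higher in the knockout libraries and 1 was lower. Srsf10, Tra2a and Son had log2 fold changes of 0.48, 0.43 and 0.35, and Srsf6 of -0.48. In level, knockout cells had 26 higher and 15 lower members, where 1.43% of all transcripts were called (0.657% higher and 0.772% lower). Of the 34 with a higher share, 19 were higher in level, and 12 lay in genes that were lower and 2 in genes that were higher. Of the 12 with a lower share, 4 were lower in level and 2 lay in genes that were higher. The 707 higher and 602 lower host genes, became 119 and 150 without knockout 2.

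The third comparison sets the knockout libraries against the naive libraries, which also serve in the first comparison. Of 11335 members tested, 1632 had a lower share and 98 a higher one, where 7.92% of all transcripts were called (6.22% lower and 1.69% higher). Without a filter the mean share was lower for 11767 of the 15598 members (75.4%), against 56.6% of all transcripts in the host genes, with a median log2 ratio of -0.40. Without knockout 1 the counts were 798 lower and 60 higher, and without knockout 2 they were 952 and 50. The log2 fold change was -1.97 for Tra2a-203 (SE 0.14, adjusted p = 0.000209, edgeR), -1.25 for Lat-202 (SE 0.07, adjusted p = 4.18e-05) and -1.07 for Cd3e-202 (SE 0.09, adjusted p = 0.000347). Cd8a-203 did not pass (-0.12, SE 0.05, adjusted p = 0.243).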

How the data were processed

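Transcript and gene tables of 18 libraries were used. Per the submitters' processing notes, the authors used StringTie 2.1.0, STAR 2.7.1a, SAMtools 1.9, DESeq2 1.30.1 and R 4.0.5. The notes name mm10 and mm39 and give no role for either. The deposited values are estimated counts written as whole numbers, and no gene value differed from the sum of its transcripts (0 of 55536). Such estimates split reads among overlapping transcripts, so the share of a member depends on the coverage model. Whether counting used strand is not given in the sources used here. Transcript types, coordinates and sequences came from GENCODE M21 (GRCm38), which holds all 141862 Ensembl transcript rows. The 26248 rows with numeric identifiers (0.0513 to 0.132% of counts) and 97 spike-in rows without counts were left out.

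Shares were tested with edgeR 4.0.16 (R 4.3.3, robust quasi-likelihood test) on transcript counts with the log of the gene total as offset. Tested were transcripts passing filterByExpr (minimum count 10) in genes with at least 10 counts in every library compared. Levels were tested with TMM scaling, and P-values were adjusted by Benjamini-Hochberg over all features and called under 0.05. SE is the log2 fold change divided by the root of the F statistic. A whole intron counted from 30 bp. Named members were the 10 largest rises and falls in percentage points among called members without overlap and with at least 5% in one group, 1 per gene and without predicted genes, plus up to 4 per list by p. Groups follow the labels. The members and lists were chosen with earlier results of these data known. Tables were handled with Python 3.11.15 and pandas 2.3.3.

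The share test was tested on simulated data before use. It called part of the changed shares for control against naive and hardly any for the knockout comparisons, so an uncalled member may have changed. The widest 95% Wilson interval of a named share was 63.7 to 74.6% (BC049715-205 in control 3, 188 of 271 counts). Intervals and limits from 0 counts (3 counts) cover counting error only. No libraries were duplicates: counts of a pair differed by a chi-square per degree of freedom of at least 137.

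Alternatives were DESeq2 1.42.0, diffSpliceDGE, limma 3.58.1 on log2 ratios, coding transcripts as the denominator, no filter, a minimum count of 50, a difference of at least 5 percentage points, all groups in one fit, a length trend removed, RLE factors, the replicate number as a block, controls 3 to 8 alone, and leaving out each library. Replicate numbers were not used as pairs.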

Additional observations from a re-analysis of the deposited data

Results flagged for a closer look

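In groups of 8 libraries, 132 sets of values were searched for a single library far from the rest (Dixon's 95% criterion), and 11 were found. Chance gives about 1 in 20. Control 1 stood out at 88.2% for Cerk-202 (other controls 2.15 to 6.22%) and at 30.2% for Srsf5-212 (37.4 to 43.1%). Control 8 held 27.1% for Fam102a-204 (1.35 to 13.02%), control 4 held 12.1% for Srsf7-207 (1.70 to 3.84%), control 6 held 15.0% for Serp2-203 (8.86 to 10.9%) and control 7 held 2.785% for Smg9-205 (4.44 to 5.74%). Naive 5 held 27.5% for Srsf2-203 (10.5 to 17.8%) and 1.33% for Cerk-202 (0.180 to 0.652%). Naive 4 held 22.8% for Nme4-204 (30.8 to 35.0%), naive 8 held 9.23% for Lat-202 (7.73 to 8.34%) and naive 3 held 0.731% for Crybg3-203, where the other naive libraries were at 0. None of the 4 summed measures per library examined this way had such a library.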

How the results depend on the processing

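For control against naive (128 members higher and 4005 lower in share), every alternative kept more lower than higher members. The counts were 14 and 460 with diffSpliceDGE, 341 and 3060 with a trend on transcript length removed, 91 and 2664 at a minimum count of 50, and 33 and 571 for differences of at least 5 percentage points. Leaving out 1 library gave 114 to 130 and 3678 to 4027. For knockout against control (34 and 12) the counts were 264 and 133 with DESeq2, 9 and 7 with diffSpliceDGE, 12 and 4 with limma, 34 and 4 without a filter, 99 and 36 with all groups in one fit, 22 and 6 with the length trend removed, 17 and 3 with controls 3 to 8, and 11 and 1 at 5 points. Leaving out 1 library gave 17 to 35 and 5 to 18. For knockout against naive (98 and 1632) they were 204 and 3093 with DESeq2, 5 and 27 with diffSpliceDGE, 243 and 1297 with the length trend removed, and 40 and 360 at 5 points. Leaving out 1 library gave 50 to 91 and 798 to 1514. In level, knockout against control (26 and 15) gave 289 and 217 with DESeq2, 19 and 7 without a filter, and 8 to 21 and 6 to 14 with 1 library left out. Control against naive gave 420 to 486 and 3820 to 4065 in level and 2467 to 2581 and 2094 to 2242 host genes. Host genes in knockout against control ranged from 119 to 857 and from 150 to 638. The causes were not tested. With the replicate number as a block, both knockout comparisons used only numbers 1 and 2 and called 0 members in share, and knockout against control 0 in level and 0 host genes. Control against naive gave 104 and 3447 in share. Same-numbered libraries had correlations of host-gene deviations from -0.20 to 0.38 in control and naive libraries, where 1 of 8 was closest to its own number, and of 0.18 and 0.19 in control and knockout libraries, so the numbers were not taken as pairs. Depth limits members of weakly expressed genes, and 6557 members were not tested for control against naive.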
